A study of Mus musculus with 12 samples.

Results

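The methylation of CC9spretus mouse embryonic stem (ES) cells was set against that of CC9mus ES cells on 6 of the 12 arrays of the series, 3 arrays titled CC9spretus and 3 titled CC9mus. The 6 arrays were chosen by their titles alone. Both lines derive from strain CC9.3.1, which came from a 129SvEv-Gpi1c(129S6) embryo. The paper describes the lines as equal in their chromosomes and different in mitochondrial DNA (mtDNA). The signal of their unenriched DNA differed on some chromosomes, as given below. CC9spretus carried mtDNA of Mus spretus and CC9mus carried mtDNA of Mus musculus. To make a line, the ES cells had lost their own mitochondria and received cytoplasm, with its mtDNA, from the donor species by cell fusion. CC9mus has the mtDNA type of the parental line and went through the same procedure. No drug or differentiation was applied, and all cells were grown on mitomycin C-treated embryonic fibroblasts with leukaemia inhibitory factor and then kept without feeder cells for 48 h. Each haplotype was represented by 1 cell line, so that a difference between haplotypes and a difference between lines cannot be told apart. The labels do not say that the replicates were separate cultures, and the tests then measure only the spread between these arrays. The other 6 arrays of the series, 3 of CC9dunni (labelled Mus terricolor mtDNA) and 3 of CC9pahari (Mus pahari mtDNA), were used for the estimate of the spread and as a level beside the results.

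Methylated DNA immunoprecipitation (MeDIP) enriches sheared DNA with an antibody to 5-methylcytosine (5mC). Cy5 marked the enriched fraction (IP), Cy3 marked the input DNA, and both were hybridised to one mouse CpG island array. Each probe then gives a log2 ratio of IP over input, which rises with the number of methylated CpGs on the fragments and is not a percentage of methylation. CpG islands are stretches rich in CpG that lie at many gene promoters. Most are unmethylated in ES cells. Methylated islands are known at imprinted control regions, where 1 parental allele carries the mark, and at some germline genes. The fragments were 200 to 1000 bp long, so that neighbouring probes share fragments and are not independent. The files give no gene for a probe. Probes are therefore given by their position on mouse build mm9, and the identity of the cells could not be checked against marker genes. A new locus was started wherever the distance to the next probe exceeded 1000 bp. The 88321 probes with a position formed 14579 loci with a median of 5 probes and a median span of 652 bp.

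The 3 CC9mus arrays differed more from each other than the 3 CC9spretus arrays did. The standard deviation (SD) of the log2 ratios, each array centred on its median, was 0.53 on CC9mus replicate 1, 1.85 on replicate 2 and 2.01 on replicate 3. On CC9spretus it was 1.38, 1.11 and 1.32. The mean SD did not separate the lines, with 1.27 in CC9spretus and 1.47 in CC9mus (exact two-sided permutation test over 3 against 3 arrays, p = 0.8, smallest p possible 0.10). A log2 ratio above 2 was found at 655 probes on CC9mus replicate 1, at 12763 on replicate 2 and at 18790 on replicate 3, against 4609, 3693 and 7343 on CC9spretus. A log2 ratio below -2 was found at 6, 13087 and 7521 probes on CC9mus and at 6508, 1443 and 173 on CC9spretus. CC9mus thus held both the narrowest array of the 6 and its 2 widest. On the CC9mus arrays 98.6%, 75.2% and 88.3% of probes had an IP signal well above background, and on the CC9spretus arrays 93.2%, 89.8% and 93.8%. The 3 CC9mus arrays were scanned on the same day, the last of 5 scan days, which held no other line. CC9spretus replicates 1 and 2 were scanned in an earlier period on different days, and replicate 3 in the later period, on a day shared with CC9dunni and CC9pahari arrays. Line and scan day cannot be told apart for CC9mus.

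**Figure D1:**
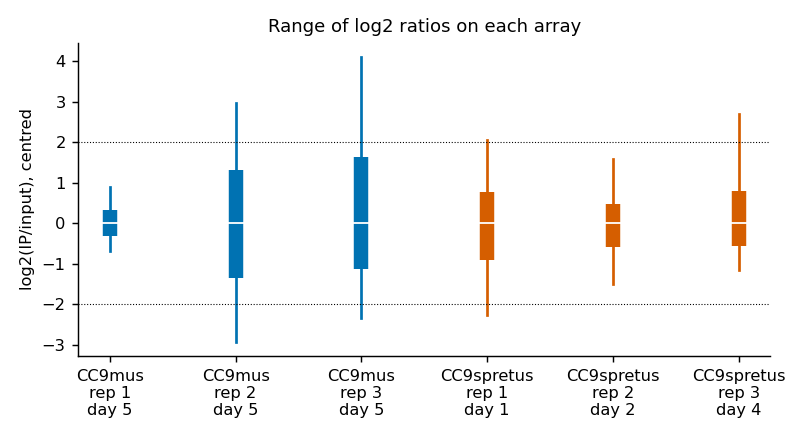
Range of the centred log2(IP/input) on each of the 6 arrays. Thick bars span the quartiles, thin lines the 5th to 95th percentiles, and dotted lines mark 2 and -2. The narrow bar of CC9mus replicate 1 (SD 0.53) stands beside the wide bars of replicates 2 and 3 (SD 1.85 and 2.01), and the CC9spretus arrays lie between them.

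The log2 ratios of the arrays were correlated in spite of their different ranges. Across probes, the Pearson correlation was 0.67 to 0.81 among the CC9mus arrays, 0.81 to 0.89 among the CC9spretus arrays and 0.64 to 0.77 between arrays of different lines. These are correlations across probes of the same design, which are not independent replicates, and no test was made of them. To see where in the range the arrays parted, probes were put into classes by their mean on the 6 arrays of CC9dunni and CC9pahari. These arrays enter the main test between the lines only through the estimate of the spread. In the class above 3, with 2433 probes, the median log2 ratio was 1.34, 3.76 and 4.98 on CC9mus replicates 1 to 3. It was 3.99, 4.21 and 5.19 on the CC9spretus arrays. The mean of the medians was 4.46 ± 0.64 (SD, n = 3) in CC9spretus and 3.36 ± 1.85 (SD, n = 3) in CC9mus, a difference of 1.11 that was smaller than the spread between the CC9mus arrays and was 0.09 without CC9mus replicate 1. In the class from 1 to 2, with 8917 probes, the median was 0.51, 2.10 and 2.10 on CC9mus and 1.29, 0.79 and 1.66 on CC9spretus. CC9spretus therefore lay between CC9mus replicate 1 and the other two CC9mus arrays in that class. In the class from -2 to -1, with 8378 probes, the median was -0.34, -2.06 and -1.53 on CC9mus and -1.97, -1.30 and -0.88 on CC9spretus.

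**Figure D2:**
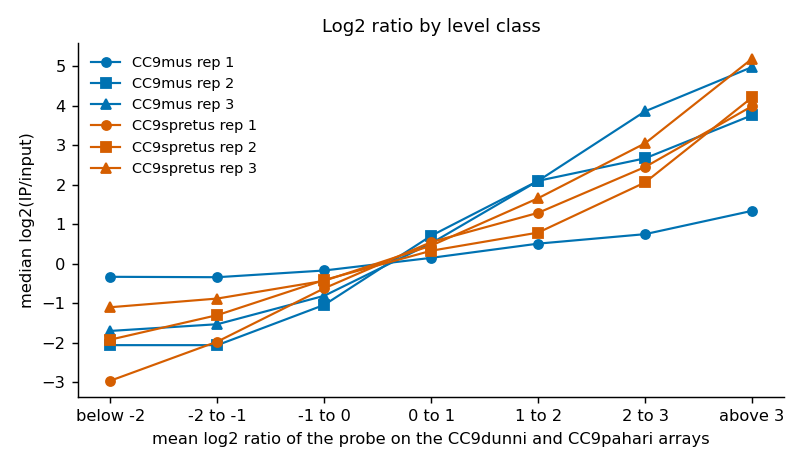
Median log2(IP/input) on each array (y axis) for probes put into 7 classes by their mean on the CC9dunni and CC9pahari arrays (x axis). CC9mus replicate 1 runs flat, from -0.33 in the lowest class to 1.34 in the highest, while the other 5 arrays reach 3.76 to 5.19.

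No probe passed the test between the lines. With limma on all 12 arrays, 0 of 88737 probes (0.0%) had a Benjamini-Hochberg adjusted p under 0.05, and the lowest adjusted p was 0.145. At an unadjusted p under 0.05 there were 15143 probes, of which 6901 were higher and 8242 lower in CC9spretus. Of the 14579 loci, 0 (0.0%) passed, with a lowest adjusted p of 0.0943. At an unadjusted p under 0.05 there were 2751 loci. The result rested on CC9mus replicate 1: without that array limma called 23939 probes, 11385 higher and 12554 lower in CC9spretus, and 5253 loci. With any 1 of the other 5 arrays left out it called at most 1 probe and at most 1 locus. Array weights in the fit of probes were 0.118, 0.535 and 0.17 on CC9mus replicates 1 to 3. With array weights limma called 0 probes and 4711 loci. With the scan period as a block on arrays scaled to an equal spread it called 6978 probes and 2076 loci. The median standard error of a difference was 0.462 for a probe and 0.296 for a locus mean.

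Without a threshold on p, the arrays of the lines did not overlap at a share of probes. All 3 CC9spretus arrays lay above all 3 CC9mus arrays at 5762 of 88125 probes with 6 values (6.54%) and below them at 5852 (6.64%). The median difference was 0.85 for the first group and -1.49 for the second. The median gap between the nearest arrays of the lines was 0.18 and 0.25. Most of the separation was thus small against the range of the arrays, and a gap above 1 was found at 109 probes higher and 167 probes lower in CC9spretus. The shares differed by level class. Probes higher in CC9spretus numbered 3614 of 30367 in the class from 0 to 1, 239 of 8917 in the class from 1 to 2 and 286 of 2433 in the class above 3. Probes lower in CC9spretus numbered 970 of 8378 in the class from -2 to -1, 3858 of 36677 in the class from -1 to 0 and 0 in the class above 3. In each class the median of CC9mus replicate 1 lay nearest to 0 of the 6 arrays. In 756 of the 5762 probes higher in CC9spretus, and in 1439 of the 5852 lower ones, the IP signal of the lower line was not well above background on at least 1 array. Probes of 1 locus were apart together: around a probe lower in CC9spretus, 24.7% of the other probes of its locus were lower too, against 6.66% around all probes, and for the higher ones the shares were 13.5% and 6.56%. The part of shared fragments in these shares was not tested. The locus means of the 3 CC9spretus arrays lay above those of CC9mus at 863 of 14579 loci (5.92%) and below at 971 (6.66%).

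Among probes measured above background on all 6 arrays, the widest gap was on chromosome 7. Probe A_68_P25599905 at chr7:150482316-150482360 (mm9) had a log2 ratio of 2.88, 4.96 and 3.38 on CC9spretus replicates 1 to 3 and of -0.25, -1.19 and -0.55 on CC9mus. The lowest CC9spretus array lay 3.13 above the highest CC9mus array. The difference was 4.40 ± 0.52 (SE) on the log2 scale and did not pass the limma test, with an adjusted p of 0.145. The probe is 1 of 8 in a locus of 1328 bp, chr7:150481208-150482535, and at all 8, of which 7 were measured above background on all 6 arrays, the 3 CC9spretus arrays lay above the 3 CC9mus arrays. Along this locus, CC9spretus replicate 1 ranged from 1.63 to 2.89, replicate 2 from 3.45 to 4.96 and replicate 3 from 2.32 to 3.68. CC9mus replicate 1 ranged from -0.25 to -0.02, replicate 2 from -1.19 to 0.73 and replicate 3 from -1.96 to 0.55. The enrichment in CC9spretus thus ran across the whole locus, at a height that differed between its arrays, while the CC9mus arrays lay at 0.73 or below, down to -1.96 on replicate 3.

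The means of this locus were 2.61, 4.46 and 2.83 in CC9spretus and -0.14, -0.10 and -0.48 in CC9mus, a difference of 3.54 ± 0.44 (SE) with an adjusted p of 0.0943 in limma. The array of CC9spretus scanned in the later period, replicate 3, lay with the other two. In the other lines the locus means were -0.48, -0.50 and 0.35 in CC9dunni and -0.27, -0.38 and 0.19 in CC9pahari, near those of CC9mus. The input signal of the locus was lower in CC9spretus by a log2 difference of -0.45, and the IP signal was higher by 3.07, each array centred on its median. The locus passed an adjusted p of 0.05 in limma when the ratios were not centred (0.0495), on probes with both signals well above background on the 6 arrays (0.0499) and on arrays scaled to an equal spread (0.0459). It also passed with array weights (0.00206), with the scan period as a block on arrays of equal spread (0.0257), without CC9mus replicate 1 (0.00161) and without CC9spretus replicate 2 (0.0388). It did not pass without CC9mus replicate 2 (0.353) or 3 (0.0631), or without CC9spretus replicate 1 (0.108) or 3 (0.256). The call on arrays of equal spread was lost in the 6 arrays alone (0.161) and with any 1 of the 6 arrays left out (0.0574 to 0.165). It also failed with normexp (0.378), with the replicate number as a block (0.105), with the slide as a random block (0.203), with only the scan period as a block (0.112) or in the 6 arrays alone (0.674). The difference itself was 2.50 with normexp, 3.68 with the scan period as a block and 3.54 in the 6 arrays alone. In the later period alone, with 1 CC9spretus array, it was 3.07, and a fit with 2 residual degrees of freedom had no locus with an adjusted p below 0.997.

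The second widest gap was on chromosome 2, in a long locus that was apart in one part only. Probe A_68_P21874505 at chr2:174124504-174124548 had a log2 ratio of 2.95, 5.16 and 3.27 in CC9spretus and of 0.48, 0.28 and 0.10 in CC9mus, a difference of 3.51 ± 0.59 (SE) with an adjusted p of 0.198 in limma. Its locus, chr2:174122729-174126550, holds 24 probes over 3822 bp. The CC9spretus arrays lay above the CC9mus arrays at 12 of the first 13 probes, up to 2334 bp from the first base, and at 0 of the other 11. Of these 12 probes, 8 were measured above background on all 6 arrays, the last of them 2221 bp from the first base, and of the other 11, 9 were. This division was drawn after the values were seen and was not tested. Over the first 13 probes, the mean was 2.56, 4.40 and 2.50 in CC9spretus and 0.26, 0.07 and 0.59 in CC9mus. Over the other 11, it was 2.74, 4.44 and 2.19 in CC9spretus, and 0.20, 0.86 and 3.09 in CC9mus. CC9spretus was level along the locus, and CC9mus replicate 3 was the array that reached the CC9spretus range in its second part, while replicates 1 and 2 stayed lower.

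The mean of the whole chromosome 2 locus differed by 2.35 ± 0.62 (SE), with an adjusted p of 0.203. The input signal there differed by 0.07 and the IP signal by 2.32. The locus means of the other lines were -0.02, 0.07 and 0.28 in CC9pahari and 2.30, 2.32 and 0.59 in CC9dunni. The first 2 CC9dunni arrays were scanned in the earlier period and stood with CC9spretus, and the third was scanned in the later period and stood lower. The part of the scan period in these levels was not tested.

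**Figure D3:**
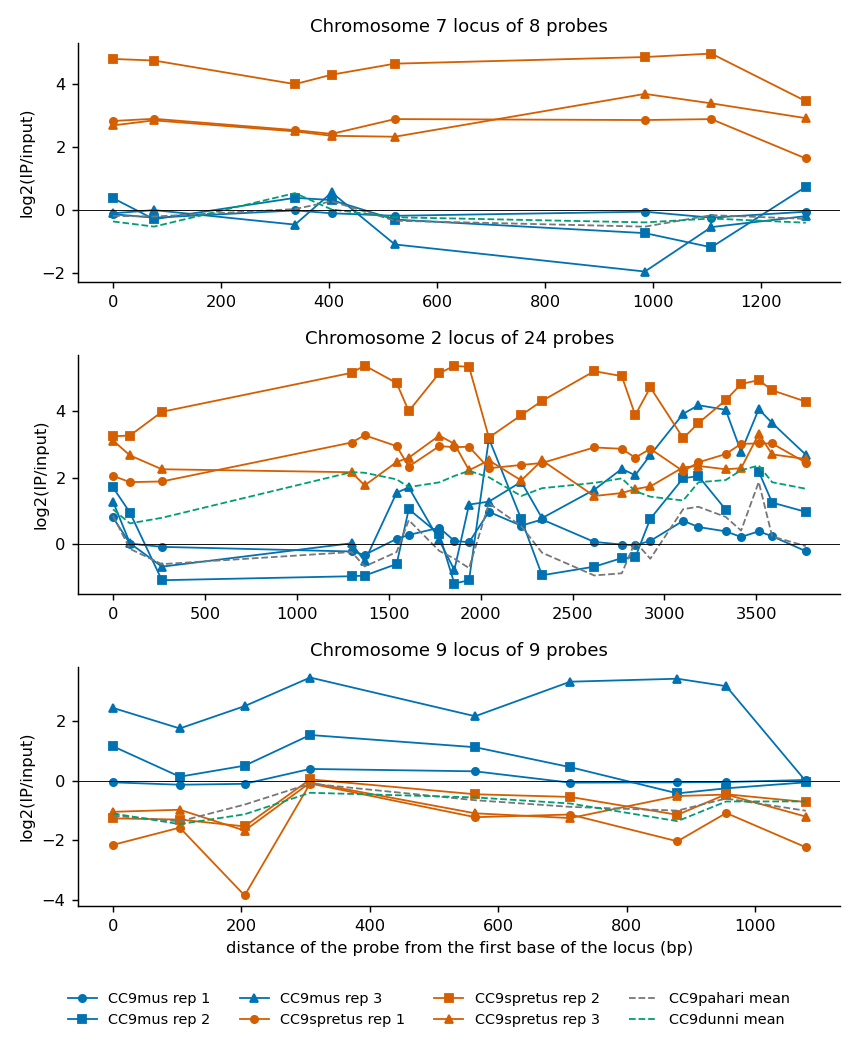
Log2(IP/input) of each probe (y axis) against its distance in bp from the first base of the locus (x axis), with 1 line per CC9mus and CC9spretus array and dashed means of CC9pahari and CC9dunni. In the chromosome 7 locus the CC9spretus arrays lie between 1.63 and 4.96 and the CC9mus arrays between -1.96 and 0.73. In the chromosome 2 locus CC9mus replicate 3 reaches 4.19 in the second part, and in the chromosome 9 locus the CC9mus arrays spread from -0.43 to 3.46 above the CC9spretus arrays.

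The other 8 probes with the widest gaps among those higher in CC9spretus, 1 per locus and measured above background on all 6 arrays, were of 2 kinds. Some were enriched in CC9spretus and near 0 in CC9mus. At chr5:143194708-143194755 the log2 ratio was 2.68, 3.64 and 4.26 in CC9spretus and -0.50, 0.42 and 0.39 in CC9mus. At chr7:106497298-106497342 it was 2.84, 2.56 and 3.59 against -0.19, 0.75 and 0.20. At chr7:108079317-108079361 it was 1.57, 2.13 and 2.44 against -0.21, -0.75 and -0.37. At these 3 probes the CC9dunni and CC9pahari arrays lay between 0.38 and 3.56 and, at each probe, above all 3 CC9mus arrays.

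The other kind was enriched in both lines and more so in CC9spretus. At chr4:141033675-141033723 the log2 ratio was 4.84, 5.36 and 6.84 in CC9spretus and 0.76, 2.83 and 2.76 in CC9mus. At chr15:76005231-76005275 it was 5.55, 6.29 and 6.59 against 1.17, 3.51 and 3.74. At chr11:60290404-60290448 it was 4.34, 4.81 and 4.96 against 1.08, 2.36 and 2.17. The probes at chr15:75543867-75543911 and chr10:127030734-127030787 had the same form, with 4.50 to 5.94 in CC9spretus and 0.58 to 2.64 in CC9mus. In these 5 probes CC9mus replicate 1, the array of narrow range, was the lowest of the 6. The CC9dunni and CC9pahari arrays lay between 2.28 and 6.15 at these 5, with 1 CC9pahari value missing. Of the 10 higher probes, 5 had all 6 CC9dunni and CC9pahari arrays above all 3 CC9mus arrays. At 3 others these 6 arrays all lay below the 3 CC9spretus arrays, and 2 were of neither form, 1 of them with the missing value. Over all 10 probes, the differences were 2.49 to 4.40, the gaps 1.78 to 3.13 and the adjusted p values 0.145 to 0.202. The input signal was lower in CC9spretus at 9 of the 10, with a median difference of -0.60. The IP signal was higher at all 10, by 1.83 to 3.73.

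**Figure D4:**
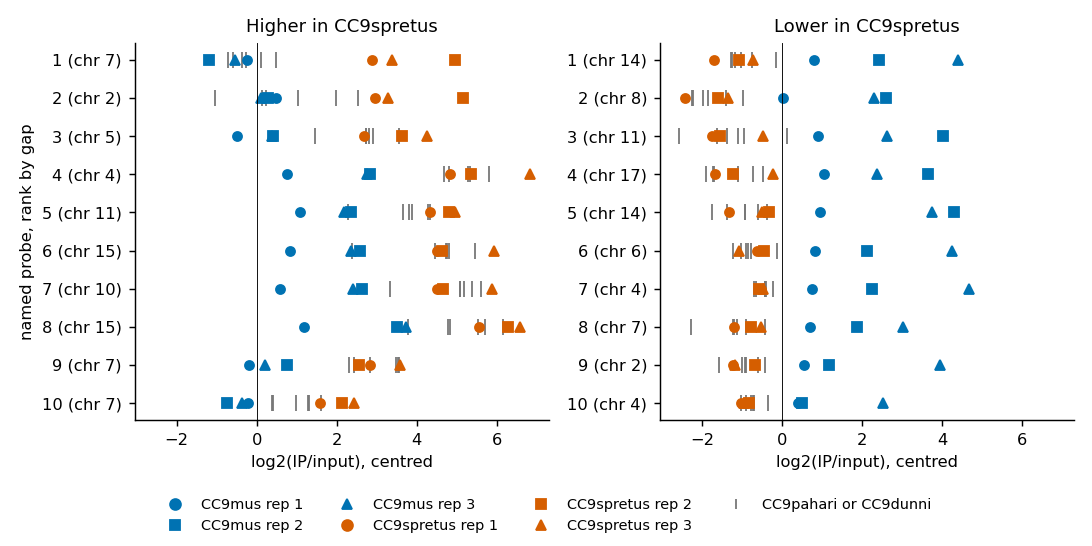
Centred log2(IP/input) of the 10 probes with the widest gaps in each direction (x axis), ranked by gap (y axis, with the chromosome), 1 symbol per array and grey ticks for the 6 arrays of CC9pahari and CC9dunni. On the left the CC9spretus arrays lie 1.78 to 3.13 above the nearest CC9mus array, and on the right 1.22 to 1.54 below it, with CC9mus replicate 1 as the nearest CC9mus array at all 10.

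The gaps were narrower in the other direction, and the CC9mus arrays were more widely scattered. Probe A_68_P29753343 at chr14:80169857-80169902 had the widest, with a log2 ratio of -1.69, -1.08 and -0.73 in CC9spretus and 0.81, 2.43 and 4.39 in CC9mus. The difference was -3.71 ± 0.70 (SE) and the gap 1.54, with an adjusted p of 0.202 in limma. Probe A_68_P26065145 at chr8:94882772-94882827 followed, with -2.41, -1.60 and -1.35 in CC9spretus and 0.04, 2.59 and 2.30 in CC9mus. The input signal of this probe was higher in CC9spretus by 1.14, and its IP signal lower by -2.31. At chr11:11938103-11938162 the ratio was -1.74, -1.55 and -0.46 in CC9spretus and 0.91, 4.02 and 2.63 in CC9mus. At chr17:10528555-10528606 it was -1.66, -1.21 and -0.23 against 1.06, 3.64 and 2.38. CC9spretus thus lay below its array median at these positions, where CC9mus replicates 2 and 3 lay at 2.30 to 4.39 and replicate 1 at 0.04 to 1.06. With normexp background correction the differences of all 10 probes lower in CC9spretus were smaller, at -2.32 to -0.75, by a median factor of 2.08. Those of the 10 higher probes were smaller by a median factor of 1.36, and that of A_68_P21874505 on chromosome 2 was 1.64.

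The other 6 lay on chromosomes 14, 6, 4, 7, 2 and 4, at chr14:84847315-84847365, chr6:39068554-39068598, chr4:99323050-99323094, chr7:150154201-150154245, chr2:180376743-180376787 and chr4:114598324-114598368. In these 6 probes the CC9spretus arrays lay between -1.31 and -0.33. In all 10, CC9mus replicate 1 was the lowest of its line, at 0.04 to 1.06, and replicates 2 and 3 lay at 0.50 to 4.68. The differences were -3.77 to -2.07, and the adjusted p was 0.202 for each. Without CC9mus replicate 3 the difference was -2.03 in place of -3.08 at chr4:99323050 and -1.88 in place of -2.90 at chr2:180376743. At all 10, every CC9dunni and CC9pahari array also lay below all 3 CC9mus arrays, between -2.58 and 0.14. These probes were chosen for their gap to the CC9mus arrays. The comparisons of the lines with CC9mus share the CC9mus arrays, and their values are not independent.

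At 29 of 10840 loci with at least 3 measured probes (0.268%), every measured probe had the CC9spretus arrays above the CC9mus arrays, and at 21 (0.194%) every one had them below. The chromosome 7 locus had the widest gap of the first group, 2.71. It was followed by chr15:75543650-75543911, where the means of 3 probes were 4.21, 4.32 and 5.76 in CC9spretus and 0.70, 2.55 and 2.45 in CC9mus. The locus chr11:84771163-84771858, of 6 probes, had means of 1.30, 1.38 and 1.92 against -0.01, -0.20 and -0.58, a difference of 1.80 ± 0.27 (SE). Its adjusted p in limma was 0.203. It was 0.0228 when a block for the scan period was fitted, 0.0499 on probes with both signals well above background, and 0.0759 with equal spread. At chr7:106497298-106497775, of 5 probes, the means were 2.51, 2.01 and 2.67 against -0.02, 0.69 and 0.84. At chr15:76470101-76470416, of 4 probes, CC9spretus lay at -0.07, 0.24 and -0.05 and CC9mus at -0.68, -1.75 and -1.20. The last of these 5 loci had an input signal lower by -0.82 and an IP signal higher by 0.41.

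Of the loci lower in CC9spretus, chr5:74042369-74042911 had the widest gap, 1.16. Its means over 4 probes were -1.17, -0.97 and -0.77 in CC9spretus and 0.40, 1.79 and 3.87 in CC9mus. The locus chr9:43047167-43048305 had 9 probes, all of them lower in CC9spretus and 6 of them measured above background on all 6 arrays. Its means were -1.72, -0.82 and -0.93 in CC9spretus and 0.03, 0.46 and 2.47 in CC9mus, and the difference was -2.14 ± 0.51 (SE) with an adjusted p of 0.203 in limma. Replicate 3 was the array in which CC9mus was clearly enriched there, between -0.02 and 3.46 along the locus, while replicate 1 stayed between -0.14 and 0.39. The locus chr8:112691923-112692318 had means of -1.39, -0.97 and -0.72 against 0.00, 0.82 and 3.27. The locus chr8:123604564-123604985 had -0.39, -0.15 and -0.01 against 0.69, 2.48 and 4.07, with an input signal higher in CC9spretus by 0.82. At chr10:86521047-86521417 CC9spretus lay at -0.56, -0.46 and -0.41 and CC9mus at 0.22, 0.70 and 1.47. Over all 21 loci, the median locus mean was 0.34, 1.53 and 2.90 on the CC9mus arrays and -0.65, -0.35 and -0.12 on the CC9spretus arrays. Over the 29 higher loci, it was -0.32, -1.06 and -0.76 on CC9mus and 0.19, 0.17 and 0.19 on CC9spretus. In the other lines the median over the 21 loci was -0.39, -0.36 and -0.11 on the CC9pahari arrays and -0.53, -0.31 and -0.07 on the CC9dunni arrays. Over the 29 it was 0.02, 0.14 and 0.18 on CC9pahari and -0.06, -0.12 and 0.13 on CC9dunni. These loci were chosen on the CC9mus and CC9spretus arrays. By these medians the lower loci were highest on CC9mus replicate 3 and, of the CC9mus arrays, nearest to the array median on replicate 1, while the median of the higher loci lay below the array median in CC9mus and near it in CC9spretus. With normexp the differences of the 5 named lower loci were -1.40 to -0.59 and those of the 5 higher ones 0.73 to 2.50. Without CC9mus replicate 3 the difference was -1.40 at the chromosome 9 locus and -1.44 at chr8:112691923. The differences were -2.99 to -1.27 at the 21 loci and 0.22 to 3.54 at the 29, and the locus means of the lines were apart at all 21 of the first and at 21 of the second.

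Scaling each array to the same median absolute log2 ratio, called equal spread here, brought calls that were not made on the unscaled ratios. In limma, 158 probes (0.178%) passed, 31 higher and 127 lower in CC9spretus, and 112 loci (0.768%), 24 higher and 88 lower. Of the 158 probes, 153 had the arrays of the lines apart on the unscaled values, and 109 were measured above background on all 6 arrays. They lay in 127 loci, and 24 loci had at least 2 probes called in the same direction. The calls included 10 of the 20 named probes and 6 of the 10 named loci. The count fell to 0 probes when the fit held only the 6 arrays of the 2 lines. It was 0 to 246 probes when 1 of the 6 arrays was left out, with 246 without CC9spretus replicate 3, 24 without CC9mus replicate 2 and 0 without any 1 of the other 4. The number of locus calls was 0 in the 6 arrays alone as well, with a lowest adjusted p of 0.161 in limma. With 1 array left out it was 298 without CC9mus replicate 1, 28 without replicate 2 and 75 without replicate 3. It was 1 without CC9spretus replicate 3 and 0 without CC9spretus replicate 1 or 2. A pair of neighbours on chromosome 19, chr19:16948539-16948593 and chr19:16948721-16948772, was called together, and was chosen for mention after its values were seen. Their CC9spretus values lay between -2.41 and -0.52 and their CC9mus values between 0.51 and 3.70.

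The small counts of other settings come down to few positions. With normexp background correction, limma called 5 probes, all higher in CC9spretus. One of them was A_68_P25599905 on chromosome 7 (adjusted p = 0.0445). At the other four, chr5:140447273-140447318, chr5:114064213-114064257, chr5:141000260-141000310 and chr17:35293323-35293372, the spot of CC9mus replicate 3 was marked as an outlier and was missing from the fit. The single probe called without CC9mus replicate 2, at chr12:111517609-111517657, lacked replicate 1 in the same way, so that CC9mus was represented by 1 array there. These probes were named after their values were seen. With the scan period as a block on arrays of equal spread, 6978 probes were called, 5356 of them higher in CC9spretus.

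A threshold of 2 or -2 on the log2 mean of a line gave unequal counts for the lines. This is the size of the log2 cutoff in the study's methods, which set it between samples and joined it to a filter on Z-scores that was not repeated here. The mean was above 2 in CC9spretus and not in CC9mus at 710 probes (0.8%), above 2 in CC9mus and not in CC9spretus at 4464 (5.03%), and above 2 in both at 3866. It was below -2 in CC9spretus alone at 722 probes (0.814%), in CC9mus alone at 2649 (2.99%) and in both at 233. The arrays of the lines were apart, in either direction, at 22.7% of the 710 probes and at 14.8% of the 4464. They were apart at 16.5% of the 722 and 2.98% of the 2649. Over all probes with 6 values, CC9spretus lay above CC9mus in this way at 6.54% and below it at 6.64%. The order of the counts above 2 turned under several settings. With equal spread, 2435 probes were above 2 in CC9spretus alone and 650 in CC9mus alone. With normexp background correction the counts were 862 and 463, and without CC9mus replicate 3 they were 2080 and 1301. When each of the 3 arrays had to pass, they were 2867 and 51, where CC9mus replicate 1, with 655 probes above 2 and 6 below -2, limited what CC9mus could reach. The counts below -2 turned under 4 settings. They were 1599 in CC9spretus alone and 207 in CC9mus alone with equal spread, and 27 and 0 when each array had to pass. Without CC9spretus replicate 3 they were 2452 and 2266, and without CC9mus replicate 2 they were 905 and 641.

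By chromosome, the median log2 ratio differed by -0.14 to 0.09 between the lines, and the arrays of the lines were apart on 4 of 20 chromosomes. On chromosome 8 it was -0.11, -0.07 and -0.05 in CC9spretus and 0.02, 0.07 and 0.11 in CC9mus. On chromosome 1 it was -0.08, -0.17 and -0.08 in CC9spretus and 0.01, 0.00 and 0.00 in CC9mus. On chromosome 10 CC9spretus lay higher, at 0.08, 0.10 and 0.04 against 0.03, -0.02 and -0.07, and on chromosome 17 by 0.06. Without centring, the arrays were apart on 0 chromosomes. On chromosomes 8 and 1 the input signal was higher in CC9spretus, where the ratio was lower. On chromosomes 10 and 17 it was lower, with log2 differences of -0.11 and -0.08, where the ratio was higher. The inputs of the lines were apart on 14 of 20 chromosomes. Chromosome 8 had an input shift of 0.06, 0.13 and 0.11 in CC9spretus and of -0.19, -0.19 and -0.15 in CC9mus. On chromosome 1 it was 0.03, 0.28 and 0.05 against -0.05, -0.04 and 0.00. The part of the input in these ratios was not tested. The share of probes lower in CC9spretus was highest on chromosomes 1 (8.51%) and 8 (8.17%), and that of probes higher in CC9spretus on chromosomes X (8.69%) and 6 (8.65%). The X chromosome had the highest median ratio in 5 of the 6 arrays, 0.31, 0.19 and 0.27 in CC9spretus and 0.42 and 0.29 on CC9mus replicates 2 and 3. On CC9mus replicate 1 it was 0.01.

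**Figure D5:**
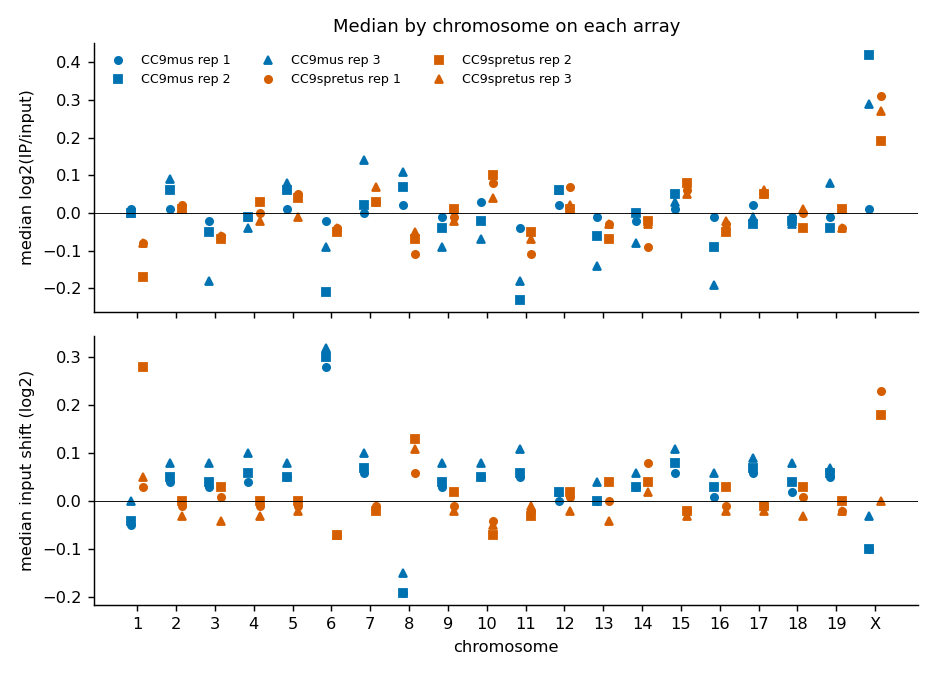
Median by chromosome (x axis) on each array, for the centred log2(IP/input) in the upper panel and for the input signal, as a log2 shift from the mean of all 12 arrays, in the lower panel. On chromosome 8 the CC9spretus arrays lie below CC9mus in the ratio (-0.11 to -0.05) and above it in the input (0.06 to 0.13), and on chromosome 6 the CC9mus inputs stand at 0.28 to 0.32.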

How the data were processed

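DNA methylation was measured by MeDIP on Agilent 2-colour mouse CpG island arrays. Spot signals were extracted by the authors in Agilent Feature Extraction, whose version is 11.0.1.1 per the file headers and 11.0.1.0 in the submitters' processing notes. The deposited processed signals are intensities after background subtraction, spatial detrending and linear dye normalisation, and the log10 ratios that the authors deposited were checked to be the same in the files of the arrays and in the table of the series. Labelling used 120 to 250 ng of IP DNA and 400 ng of input DNA per the labels. From the intensities, log2(IP/input) was computed for 88737 probes of 45 to 60 bp, spots marked as outliers were left out, and the median of an array was subtracted from its log2 ratios. No pseudocount was added. Positions were on mm9, and 416 probes had none. The annotation at hand was of another build and was not used.

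The comparison used limma 3.58.1 under R 4.3.3. Means of the 4 lines were fitted over 12 arrays by lmFit, followed by eBayes and Benjamini-Hochberg adjustment over all probes or loci at 0.05. Named are, in each direction, the 10 probes with the widest gap between the arrays of the lines, 1 per locus, among probes not saturated, not marked as outliers and well above background in both signals on the 6 arrays, and the 5 loci with the widest gap among those with at least 3 such probes that are all apart in that direction. Members and lists were chosen with earlier results of these data known. The fit was tested on simulated data in which all arrays had the same noise. It was not tested on arrays of unequal spread such as those used here. The alternatives were no centring, normexp (offset 50, on median spot signals of all spots), the deposited log10 ratios, equal spread, a filter on dim probes, the 6 arrays alone, array weights, blocks for replicate number, slide and scan period, the later period alone, each array left out, a threshold of 2 passed on each array, and locus gaps of 500 and 2000 bp. Slide could not be a fixed block, since the slides of CC9mus held no other line. Added after the data were seen were the 6 arrays alone and each array left out with equal spread, and the alternatives for the spread, the level classes and the loci. Other steps ran in Python 3.11.15 with matplotlib 3.10.9, scipy 1.17.1, pandas 2.3.3 and numpy 2.4.6. For arrays, the number of arrays and the signal over background limit the precision.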

Additional observations from a re-analysis of the deposited data

Results flagged for a closer look

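The input DNA, which the comparison of IP with input does not use by itself, differed between the lines on 3 chromosomes by more than 0.2 on the log2 scale, with the arrays of the lines apart. On chromosome 6 the input signal of CC9spretus was lower by a log2 difference of -0.37, with shifts of -0.07 on each of its 3 arrays and of 0.28, 0.30 and 0.32 in CC9mus. CC9pahari stood at -0.09 to -0.08 there and CC9dunni at -0.14 to -0.10, so that CC9mus differed from the arrays of all other lines. On chromosome 8 it was higher by 0.28, and on the X chromosome by 0.21. On chromosome 8 CC9pahari stood at 0.21 to 0.30 and CC9dunni at -0.16 to -0.10. On the X chromosome CC9spretus replicate 3, at 0.00, was close to CC9mus replicate 3, at -0.03, and both were scanned in the later period.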

How the results depend on the processing

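The differences at the 20 named probes and 10 named loci had the same sign under all alternatives. They were chosen for arrays apart on the unscaled ratios. That choice fixed the sign with unscaled arrays left out, in the 6 arrays alone and in the later period alone. Normexp made the differences of 12 of the 20 probes and 7 of the 10 loci smaller by over 1.5 times, up to 2.76 and 2.59 times. The scan period block with equal spread enlarged 5 probes and 2 loci and shrank 2 loci by as much, and leaving out CC9mus replicate 3 shrank 2 probes and 2 loci. With equal spread, leaving out CC9spretus replicate 1 enlarged 6 probes and 1 locus, leaving out CC9mus replicate 1 enlarged 1 probe, and leaving out CC9mus replicate 3 shrank 3 loci. The 0 probes called became 5 with normexp, 158 with equal spread, 6978 with the scan period as a block and equal spread, and 15143 at an unadjusted p under 0.05. With an array left out they ranged from 0 to 23939, the highest without CC9mus replicate 1 on unscaled ratios, and with equal spread from 0 to 246. The 0 loci became 2 without centring, 112 with equal spread, 4 on bright probes, 4711 with array weights, 1 with the scan period as a block and 2076 with that block and equal spread, and 0 to 5253 with an array left out (0 to 298 with equal spread). The replicate block called 0 probes (17169 at an unadjusted p under 0.05) and 0 loci (3026), and so changed no call. The replicate numbers did not pair the samples: deviations of same-numbered arrays correlated at -0.22, -0.38 and 0.04. In the 3 CC9mus arrays and replicate 3 of the other lines, all of the later scan period, with 2 residual degrees of freedom, 0 probes and 0 loci were called, with CC9spretus represented by 1 array assumed to vary like the others.

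Probes higher in CC9spretus on all arrays numbered 2417 with normexp and 11238 with equal spread, and probes lower 4014 with normexp and 9312 with equal spread. With an array left out they ranged from 7186 to 21926 and from 6958 to 20299, where fewer arrays also have to be apart. Probes above 2 in CC9spretus alone numbered 2435 with equal spread and 2867 on each array (192 to 2080 with an array left out), and in CC9mus alone 2962 without centring, 463 with normexp, 650 with equal spread and 51 on each array (1301 to 11280). Probes below -2 in CC9spretus alone numbered 1 with normexp, 1599 with equal spread and 27 on each array (173 to 2452), and in CC9mus alone 4326 without centring, 813 with normexp, 207 with equal spread and 0 on each array (641 to 9109). Chromosomes with the lines apart numbered 0 without centring and 5 to 10 with an array left out, 10 without CC9mus replicate 1. The difference of mean SD was -0.66 without CC9mus replicate 1, and turned to 0.08 without CC9mus replicate 3. The difference in the class above 3 was 2.45 with equal spread and 0.09 to 1.92 with an array left out. The causes of these shifts were not tested, and the array that moved most counts was CC9mus replicate 1. On CC9mus replicate 2 the IP signal was well above background at 75.2% of probes, and at the others there is only a bound.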
